A study of Mus musculus with 21 samples.

Results

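The microRNA content of the olfactory bulb (OB) at postnatal day 15 (P15) was compared with that of the subventricular zone (SVZ) at P6 in CD1 mice. The members are 9 of the 21 small RNA libraries of the series, chosen by their labels: 3 of OB at P15, 3 of the dorsal wall of the SVZ at P6 and 3 of its lateral wall at P6. Both walls were given equal weight. These are the closest ages at which the 2 tissues were sampled, so tissue and age cannot be told apart in any value below. The other 12 libraries hold both SVZ walls at P1, OB at P28, and the stream of migrating neuroblasts between them (rostral migratory stream, RMS) at both bulb ages, and the study followed postnatal neurogenesis in time and space. The labels name no genotype or treatment, describe every library as dissected brain tissue, and do not say whether replicates came from separate animals. The p-values therefore measure the spread between libraries of the same group, estimated over all 21 libraries, and this spread may be technical.

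The SVZ lines the lateral ventricles and keeps neural stem cells after birth. Their progeny move along the RMS into the bulb and mature there into granule and periglomerular interneurons, while multiciliated ependymal cells cover the ventricle side of the SVZ. A microRNA is cut from a hairpin precursor and represses messenger RNAs that pair with its seed, which are bases 2 to 8 of the mature strand. In bulk tissue, fewer cells of a type and less RNA per cell cannot be told apart.

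The sequences of the microRNAs on which the largest differences rest are shown first, since members of a family share a seed and hence can share targets. They are RefSeq mature sequences (table build GRCm38.p6), 5′ to 3′, with the seed in capitals. The miR-200 family falls into 2 seed groups that differ at 1 base, and both stood far above the SVZ level in the bulb. The first holds miR-200b, miR-200c and miR-429, and the second holds miR-200a and miR-141.
miR-200b: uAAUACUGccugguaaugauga
miR-200c: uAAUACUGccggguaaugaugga
miR-429: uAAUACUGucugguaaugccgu
miR-200a: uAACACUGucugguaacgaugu
miR-141: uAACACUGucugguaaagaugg

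The miR-183 cluster is transcribed as 1 unit with 3 hairpins, and its mature forms have related but unequal seeds. The cluster is known from sensory organs such as the retina, the inner ear and the olfactory system.
miR-182: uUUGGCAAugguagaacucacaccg
miR-96: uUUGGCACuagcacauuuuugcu
miR-183: uAUGGCACugguagaauucacu

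The microRNAs of multiciliated cells are miR-34b and miR-34c, whose hairpin genes are neighbours, and the miR-449 family from another locus. The 3 forms printed here have 1 seed. The 9 largest falls in the bulb were all of these microRNAs.
miR-34b-5p: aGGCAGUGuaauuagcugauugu
miR-449a: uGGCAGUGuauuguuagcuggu
miR-449c: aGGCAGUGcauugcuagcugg

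Further families with smaller differences are shown by 2 or 3 members each. The cluster of miR-132 and miR-212 and the miR-29 family were higher in the bulb. The pair of miR-99a and miR-100 and the pair of miR-92a and miR-92b were lower.
miR-132: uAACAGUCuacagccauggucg
miR-212-3p: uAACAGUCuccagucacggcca
miR-29a: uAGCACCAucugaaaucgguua
miR-29b: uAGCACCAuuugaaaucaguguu
miR-29c: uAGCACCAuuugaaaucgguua
miR-99a: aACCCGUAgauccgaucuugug
miR-100: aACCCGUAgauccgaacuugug
miR-92a: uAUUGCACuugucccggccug
miR-92b: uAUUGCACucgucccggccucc

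The deposited value is a score, a normalized read count that the authors rounded to whole numbers. Ranked from the highest down, the scores of each library follow 1 common distribution times a library factor, so a score places a feature within its library, and the sequencing depth is unknown. Of 1445 microRNA features in the table, 807 had a score of at least 10 in at least 3 of the 21 libraries and were tested: 397 mature forms, 227 hairpins (written pre-mir), and for the rest star forms (the less abundant strand, written with an asterisk). For a feature with every score under 10 in 1 tissue, this filter favoured a higher level in the other tissue. Differences are given as log2 fold changes of score + 1 with their standard error (SE), which understates the change of low features. Features with an adjusted p under 0.05 in limma, adjusted over all 807, are said to have passed. MicroRNA features made up 71.0% to 76.0% of the total score in OB, 70.1% to 74.8% in dorsal libraries and 79.7% to 81.6% in lateral libraries. Pearson's r of log2(score + 1) across the tested features was 0.962 to 0.972 between OB libraries, 0.915 to 0.940 between walls and 0.791 to 0.836 between OB and SVZ libraries, as a description.

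The OB and the SVZ differed in 290 of the 807 features (35.9% called), with 175 higher in OB (21.7% called) and 115 lower (14.3% called). Of the 290, 226 differed by at least 2-fold, 141 of them higher and 85 lower. In 148 features all 3 OB libraries lay above all 6 SVZ libraries (18.3%), and in 98 all lay below (12.1%). The 2 sides were not alike in size. Among features with at least 1 SVZ library above 0, 16 were higher by over 5 on the log2 scale, and all 16 belonged to the miR-200 family or the miR-183 cluster. The largest rise outside these lists was 4.46 on the log2 scale, for miR-490-5p.

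The median log2 fold change over all tested features was 0.26, so the balance of higher and lower calls depends on where 0 is set. With trimmed mean of M values factors it was 0.14, and 161 features were higher and 140 lower. Relative to the median feature of each library it was -0.15, and 112 were higher and 195 lower. The share of calls that were higher thus went from 60.3% to 53.5% and 36.5%. Against the dorsal wall alone, 344 features passed (42.6% called), 242 higher (30%) and 102 lower (12.6%). Against the lateral wall alone, 26.3% of features passed, with 109 higher (13.5% called) and 103 lower (12.8% called). Under the same 2 scalings the share of calls that were higher went from 70.3% to 55.9% and 41.8% against the dorsal wall, and from 51.4% to 53.8% and 36.7% against the lateral wall. Both comparisons share the OB libraries.

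**Figure D1:**
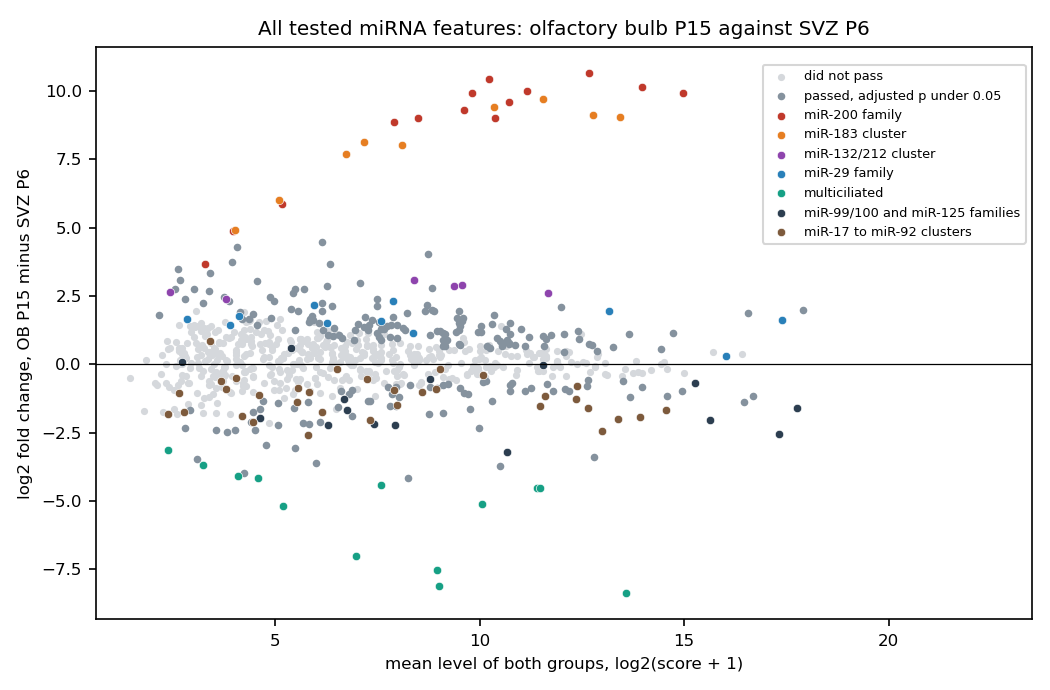
Log2 fold change of OB P15 against SVZ P6 (vertical axis) against the mean level of both groups as log2(score + 1) (horizontal axis), 1 point for each of the 807 tested microRNA features, with 7 lists coloured. All points above 5 belong to the miR-200 family or the miR-183 cluster, and the 9 lowest points to the multiciliated list.

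All 14 tested features of the miR-200 family passed and were higher in OB, where 21.7% of all features were higher. In all 14 the OB libraries lay above every SVZ library, as in 18.3% of all features. Members with every SVZ score under 10, among them miR-200c and miR-141, met the filter on low scores through other libraries. For these the filter itself favoured a higher level in the bulb. The family is abundant in epithelia, where it represses the ZEB transcription factors, and is known from olfactory tissue. In OB it took 4.34% to 6.90% of the microRNA score, and in SVZ libraries at most 0.00583%. MiR-200a, its highest-scoring member, scored 46527, 88189 and 56513 in the 3 OB libraries and 38 to 84 (median 67.5) in the 6 SVZ libraries. Every OB value lay far above every SVZ value. Its log2 fold change was 9.92 ± 0.37 (adjusted p = 1.62e-15), and it ranked among the 10 most abundant features of the bulb.

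MiR-429, which is cut from the same transcript as miR-200a and miR-200b, scored 30778, 31853 and 33210 in OB and 9 to 43 (median 31) in SVZ. MiR-200b scored 10377, 15327 and 13187 in OB and 1 to 15 (median 9.5) in SVZ. These 3 OB libraries sat close together for miR-429 and spread more for miR-200a, and no value overlapped the SVZ. The log2 fold change was 10.14 ± 0.51 for miR-429 (adjusted p = 2.03e-13). That of miR-200b was 10.66 ± 0.56 (adjusted p = 2.69e-13), and since its SVZ scores are near 0 it fell to 9.48 with a pseudocount of 10.

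The second genomic unit of the family holds miR-200c and miR-141. MiR-200c scored 2231, 4266 and 3549 in OB and 1 to 9 (median 3) in SVZ. MiR-141 scored 2504, 2688 and 2803 in OB and 3 to 6 (median 4) in SVZ. Both units were thus high in the bulb, and here too no bulb library overlapped the SVZ. Their log2 fold changes were 9.59 ± 0.57 and 9.03 ± 0.46. The hairpin feature pre-mir-141 scored 4671, 4990 and 4161 in OB and 0 to 8 (median 5) in SVZ. The features miR-200a*, pre-mir-200c and miR-200c* were listed at 0 in all 6 SVZ libraries, and their OB scores ran from 2 for miR-200c* to 583 for miR-200a*. Over the other 11 tested features the median log2 fold change was 9.92, from 5.88 to 10.66.

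All 9 tested features of the miR-183 cluster passed and were higher in OB, without overlap between the groups (21.7% and 18.3% of all features). Here too, the filter favoured a higher bulb level for members with every SVZ score under 10, miR-96 among them. The cluster took 1.62% to 2.28% of the microRNA score in OB and at most 0.00605% in SVZ. MiR-182 scored 19089, 24837 and 21761 in OB and 20 to 75 (median 41.5) in SVZ. MiR-183 scored 15585, 15741 and 10557 in OB and 13 to 38 (median 28) in SVZ. The third bulb library was the lowest for miR-183 and still far above the SVZ. The log2 fold changes were 9.04 ± 0.37 for miR-182 (adjusted p = 5.11e-15) and 9.12 ± 0.39 for miR-183 (adjusted p = 7.17e-15).

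MiR-96, the member whose seed mutations cause deafness, scored 575, 548 and 509 in OB and 0 to 6 (median 1) in SVZ. The other strand of the miR-183 hairpin, miR-183*, scored 3123, 2847 and 1915 in OB and 0 to 15 (median 3) in SVZ. The 4 features pre-mir-182, miR-182*, miR-96* and pre-mir-96 were listed at 0 in all 6 SVZ libraries and scored between 23 and 356 in OB. The other 5 had a median log2 fold change of 9.12, from 8.02 to 9.70. With a pseudocount of 10 the median over all 9 was 5.59, and over the miR-200 family 7.44, with every feature still past the threshold.

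The same forms were low outside the bulb and high in the older bulb. In the single RMS library of P15, the age of these bulbs, miR-200a scored 288, miR-182 scored 112 and miR-96 was listed at 0. In OB at P28, miR-200a scored 169394, 123824 and 175468 and miR-182 scored 57689, 66644 and 82825. In the 6 SVZ libraries of P1, miR-200a scored 11 to 64 and miR-182 20 to 63. The OB level at P15 thus lay above that of all SVZ and RMS libraries of the series for these microRNAs.

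**Figure D2:**
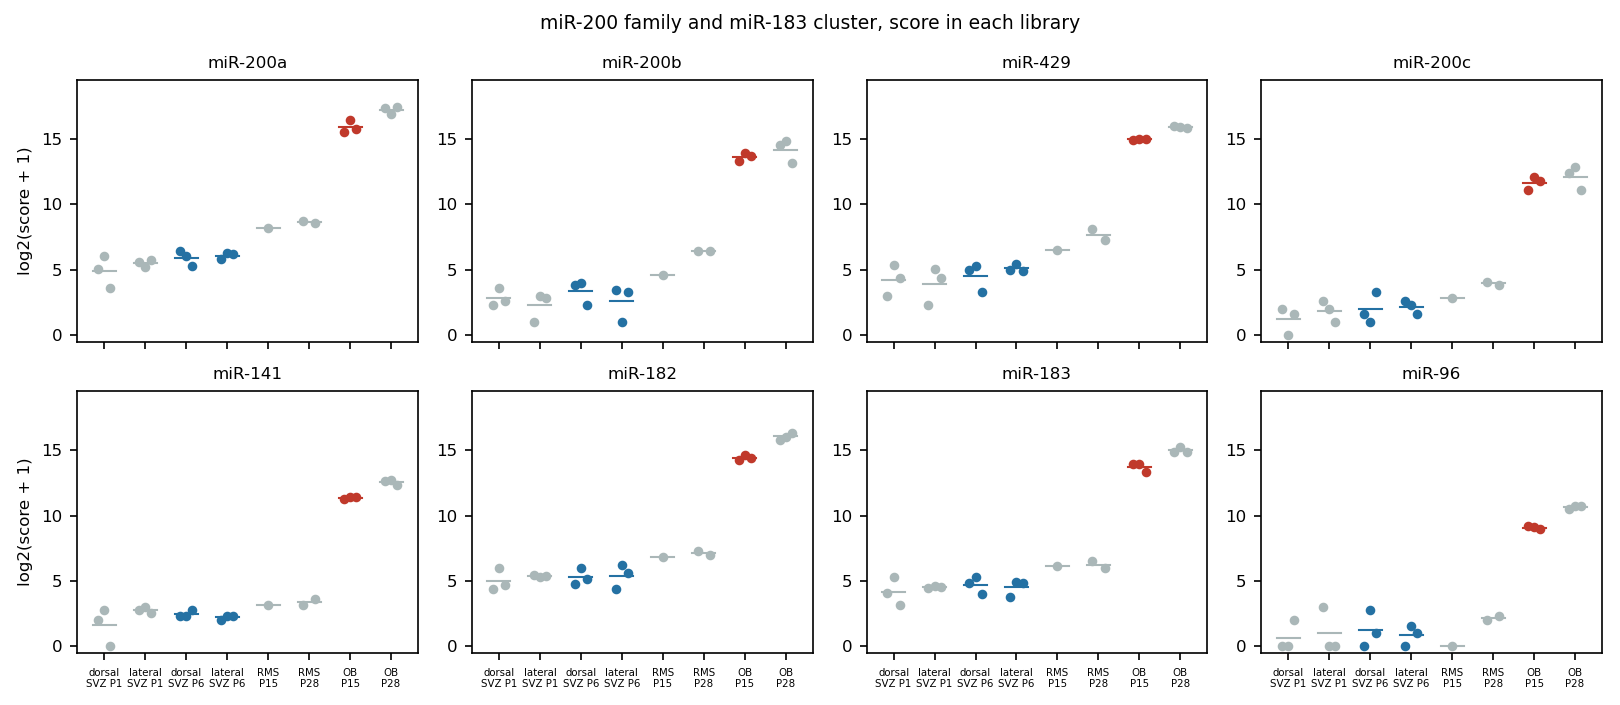
Log2(score + 1) of the 5 mature forms of the miR-200 family and the 3 of the miR-183 cluster (vertical axes) in each of the 21 libraries, by group (horizontal axis); points are libraries, bars are group means of the log values, OB P15 is red, SVZ P6 blue and the other groups grey. In all 8 panels the OB libraries of both ages lie above every SVZ and RMS library.

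The multiciliated list moved the other way. All 13 tested features of miR-34b, miR-34c and the miR-449 family passed and were lower in OB, without overlap (14.3% and 12.1% of all features). Members with OB scores near 0, miR-449c among them, met the filter on low scores through other libraries. For these the filter itself favoured a lower level in the bulb. The median log2 fold change of the 13 was -4.54. These microRNAs are needed for the formation of motile cilia. Their summed score was 563 to 641 in OB, 27804 to 33323 in dorsal libraries and 40984 to 55873 in lateral libraries. That is 0.0249% to 0.0260% of the microRNA score in OB against 1.07% to 1.42% and 1.59% to 2.18%. MiR-449a scored 89, 69 and 53 in OB and 13999 to 37465 (median 22255.5) in SVZ. Its log2 fold change of -8.37 ± 0.34 (adjusted p = 5.11e-15) was the largest fall of any tested feature. MiR-449c scored 0, 9 and 12 in OB and 645 to 1438 (median 851) in SVZ.

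MiR-34c scored 242, 210 and 250 in OB and 3821 to 6645 (median 5905.5) in SVZ, a log2 fold change of -4.53 ± 0.30. MiR-34b-5p scored 186, 204 and 243 in OB and 2374 to 7793 (median 5334.5) in SVZ, a log2 fold change of -4.54 ± 0.38. These falls depend on the age of the SVZ that is set against the bulb. In the 6 SVZ libraries of P1, miR-34c scored 190 to 379, a range that holds all 3 OB values, while miR-449a at P1 scored 3350 to 6269 and stayed above the bulb. In the RMS library of P15, miR-449a scored 561 and miR-34c 285.

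MicroRNAs of neurons were more often higher than lower in the bulb against both walls together and against the dorsal wall, and not against the lateral wall. Of 44 tested features in the neuron-enriched list, 18 were higher and 5 lower, against 21.7% and 14.3% of all features, with a median log2 fold change of 1.01. Against the dorsal wall 24 were higher and 1 lower (30% and 12.6% of all features), and against the lateral wall 9 were higher and 9 lower (13.5% and 12.8% of all features). When set relative to the median feature of each library, 13 were higher and 8 lower against both walls together. The list took 25.7% to 27.4% of the microRNA score in OB, 5.68% to 8.38% in dorsal libraries and 9.98% to 17.3% in lateral libraries. MiR-124, the most abundant neuronal microRNA, scored 385538, 358054 and 373309 in OB and 37709 to 249522 (median 86109) in SVZ. It held the highest score of the library in all 3 OB libraries, so its value there is the top of the common distribution. Its log2 fold change was 1.97 ± 0.33 (adjusted p = 6.04e-05). In OB at P28 it scored 131409, 251460 and 136121, below all 3 OB libraries of P15.

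MiR-138, a brain-enriched microRNA that acts at dendritic spines, scored 109898, 159159 and 165940 in OB, 20230, 22734 and 15941 in the dorsal wall and 76103, 75945 and 74762 in the lateral wall. It was higher than both walls, by 2.88 ± 0.24 on the log2 scale over the dorsal and 0.92 ± 0.24 over the lateral wall. MiR-129-2-3p, an arm of another neuronal microRNA, scored 17770, 14076 and 20718 in OB and 5290 to 11158 (median 8259) in SVZ, a log2 fold change of 1.13 ± 0.18. MiR-128 scored 64842, 54204 and 62785 in OB and 28947 to 83678 (median 41938) in SVZ and did not pass (log2 fold change 0.45 ± 0.27, adjusted p = 0.202). Its groups overlapped through 1 dorsal library at 83678, and the lateral libraries, at 40281, 43681 and 43000, lay below every OB library. The 5 neuron-enriched features that were lower, named after their values were seen, were miR-137, miR-873, pre-mir-873, miR-218-1* and pre-mir-218-1. Without any 1 of the OB libraries, dorsal replicate 1 or lateral replicate 1 or 2, the calls of miR-873 (adjusted p = 0.0512 to 0.15) and pre-mir-218-1 (adjusted p = 0.063 to 0.151) were lost. That of pre-mir-873 was lost without OB replicate 2 (adjusted p = 0.103) or 3 (adjusted p = 0.0509). MiR-137, which promotes neuronal differentiation, scored 2411, 2276 and 3210 in OB, 3556, 2191 and 1987 in the dorsal wall and 8977, 10030 and 10076 in the lateral wall (log2 fold change -0.92 ± 0.19), so its OB range overlapped that of the dorsal wall.

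The cluster of miR-132 and miR-212 is induced by neuronal activity through the transcription factor CREB. It was higher in OB in all 6 tested features (21.7% of all features). Every SVZ score of the hairpins pre-mir-132 and pre-mir-212 was under 10. For these hairpins the filter on low scores favoured a higher level in the bulb. The median log2 fold change of the cluster was 2.74, and 5 of the 6 also passed against the lateral wall alone. MiR-132 scored 6014, 4535 and 6135 in OB, 677, 552 and 445 in the dorsal wall and 1339, 1840 and 1271 in the lateral wall. MiR-212-3p scored 1407, 939 and 1096 in OB and 58 to 373 (median 172) in SVZ. In both, the walls were ordered alike and every OB library lay above every SVZ library. The log2 fold change was 2.62 ± 0.28 for miR-132 (adjusted p = 1.06e-07) and 2.86 ± 0.36 for miR-212-3p. The low hairpin pre-mir-212, at 50, 14 and 4 in OB, lost its call without OB replicate 1 (log2 fold change 1.52, adjusted p = 0.133).

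In the miR-7 family the outcome depended on the wall. MiR-7 is known to repress Pax6, which drives the dopaminergic fate of bulb interneurons. Against the dorsal wall all 8 tested features were higher (30% of all features). Against the lateral wall 1 was higher, miR-7b*, and 1 lower, miR-7a (13.5% and 12.8% of all features). Against both walls together 4 were higher (21.7% of all features), namely miR-7b, miR-7b*, miR-7a-1* and pre-mir-7b. MiR-7a scored 1774, 1725 and 2160 in OB, 895, 573 and 649 in the dorsal wall and 4867, 7108 and 3064 in the lateral wall. Its OB level thus lay between the walls. MiR-7b scored 696, 587 and 636 in OB, 237, 92 and 67 in the dorsal wall and 668, 1018 and 389 in the lateral wall. It was higher than the dorsal wall by 2.48 ± 0.39 (adjusted p = 2.24e-05) and differed from the lateral wall by -0.01 ± 0.39 (adjusted p = 0.991). The call of miR-7a-1*, with a log2 fold change of 0.46 against both walls, was lost in 7 of the 9 fits that left out 1 library, among them the fit without OB replicate 1 (adjusted p = 0.171). The call of miR-7b* was lost without OB replicate 1 (adjusted p = 0.0532) and that of pre-mir-7b without OB replicate 2 (adjusted p = 0.0932).

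The miR-29 family rises as neurons mature and targets extracellular matrix and DNA methyltransferase transcripts. It was higher in 9 of 11 tested features and lower in none, against 21.7% and 14.3% of all features. Its share of the microRNA score was 14.3% to 15.4% in OB, 6.36% to 6.58% in dorsal libraries and 4.95% to 5.92% in lateral libraries. MiR-29a scored 269987, 250740 and 261423 in OB and 67317 to 98226 (median 88454.5) in SVZ, a log2 fold change of 1.63 ± 0.16. MiR-29b scored 14663, 11463 and 17782 in OB and 3202 to 4317 (median 3693) in SVZ, a log2 fold change of 1.97 ± 0.17. MiR-29c shares their seed but did not pass, at 80893, 60219 and 78327 in OB and 53940 to 67073 (median 57947.5) in SVZ (log2 fold change 0.30 ± 0.17, adjusted p = 0.166). Near-identical family members may share reads, so their separate values are uncertain.

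**Figure D3:**
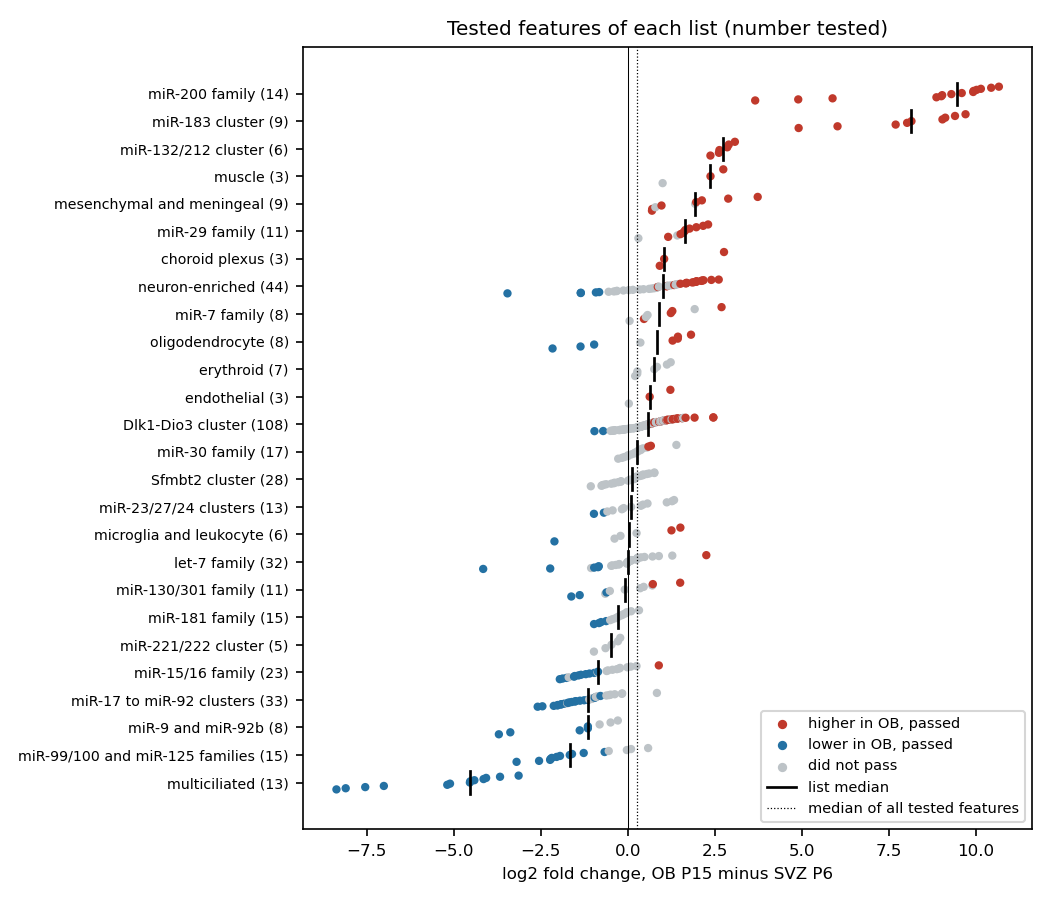
Log2 fold change of OB P15 against SVZ P6 (horizontal axis) for the tested features of each list with at least 3 of them (vertical axis, number tested in brackets); red points passed higher in OB, blue points passed lower, grey points did not pass, black bars are list medians and the dotted line is the median of all tested features, 0.26. The list medians run from 9.44 for the miR-200 family to -4.54 for the multiciliated list, and fitted values of features whose SVZ libraries are all at 0 depend on the pseudocount.

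Several families were more often lower than higher in the bulb. The miR-99, miR-100 and miR-125 families were lower in 11 of 15 tested features and higher in none (14.3% and 21.7% of all features). Their median log2 fold change was -1.67. They took 7.73% to 10.4% of the microRNA score in OB, 32.7% to 34.2% in dorsal libraries and 25.4% to 28.7% in lateral libraries. MiR-99a scored 58364, 36984 and 45051 in OB and 158385 to 368070 (median 266640) in SVZ, a log2 fold change of -2.55 ± 0.20. MiR-100, with the same seed, scored 19557, 17728 and 19977 in OB and 59927 to 113681 (median 75829) in SVZ, a log2 fold change of -2.05 ± 0.15. MiR-125b-5p scored 132947, 102064 and 91946 in OB and 253932 to 398807 (median 359134) in SVZ, a log2 fold change of -1.60 ± 0.16. None of these 3 overlapped between OB and SVZ. MiR-99a or miR-125b-5p held the highest score of each SVZ library.

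MiR-92b and its hairpin, which are marks of neural progenitors, showed the largest falls outside the multiciliated list among features with a mean score over 1000 in the SVZ. MiR-92b scored 1330, 1383 and 1046 in OB and 11062 to 15678 (median 12689) in SVZ (log2 fold change -3.37 ± 0.20, adjusted p = 2.79e-12). Its hairpin pre-mir-92b scored 202, 249 and 159 in OB and 2106 to 3728 (median 2302) in SVZ (log2 fold change -3.70 ± 0.25). MiR-9, a microRNA of progenitors and of neurons, varied widely among the OB libraries, at 34298, 66453 and 106412 in OB and 122869 to 177274 (median 125999) in SVZ. Its log2 fold change of -1.15 ± 0.28 passed with all libraries and not without OB replicate 1 (-0.72, adjusted p = 0.0577). The other strand, miR-9*, scored 13176, 12236 and 17207 in OB and 19409 to 74016 (median 26518) in SVZ, a log2 fold change of -1.15 ± 0.24.

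The miR-17 to miR-92 clusters, which promote proliferation, were lower in 19 of 33 tested features and higher in none (14.3% and 21.7% of all features). Their median was -1.14. MiR-17 scored 6836, 6219 and 6038 in OB and 19775 to 34286 (median 23315) in SVZ, a log2 fold change of -1.92 ± 0.21. MiR-92a scored 2676, 2648 and 1938 in OB and 9030 to 22133 (median 11123.5) in SVZ, a log2 fold change of -2.45 ± 0.23. MiR-20a and miR-19b were also lower, by log2 fold changes of -2.01 and -1.67, and in all 4 the groups were apart. The miR-15/16 family, which restrains cell cycle genes, was lower in 11 of 23 and higher in 1, miR-497. Its outcome depended on the wall. Against the dorsal wall 12 were lower and 1 higher (12.6% and 30% of all features). Against the lateral wall 4 were lower and 2 higher (12.8% and 13.5% of all features). MiR-15b scored 2342, 2443 and 2334 in OB and 3915 to 6091 (median 4152.5) in SVZ, a log2 fold change of -0.96 ± 0.20. MiR-497 scored 2053, 2354 and 1971 in OB and 944 to 1419 (median 1116) in SVZ, a log2 fold change of 0.89 ± 0.22 that became 0.48 relative to the median feature and no longer passed (adjusted p = 0.0788).

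**Figure D4:**
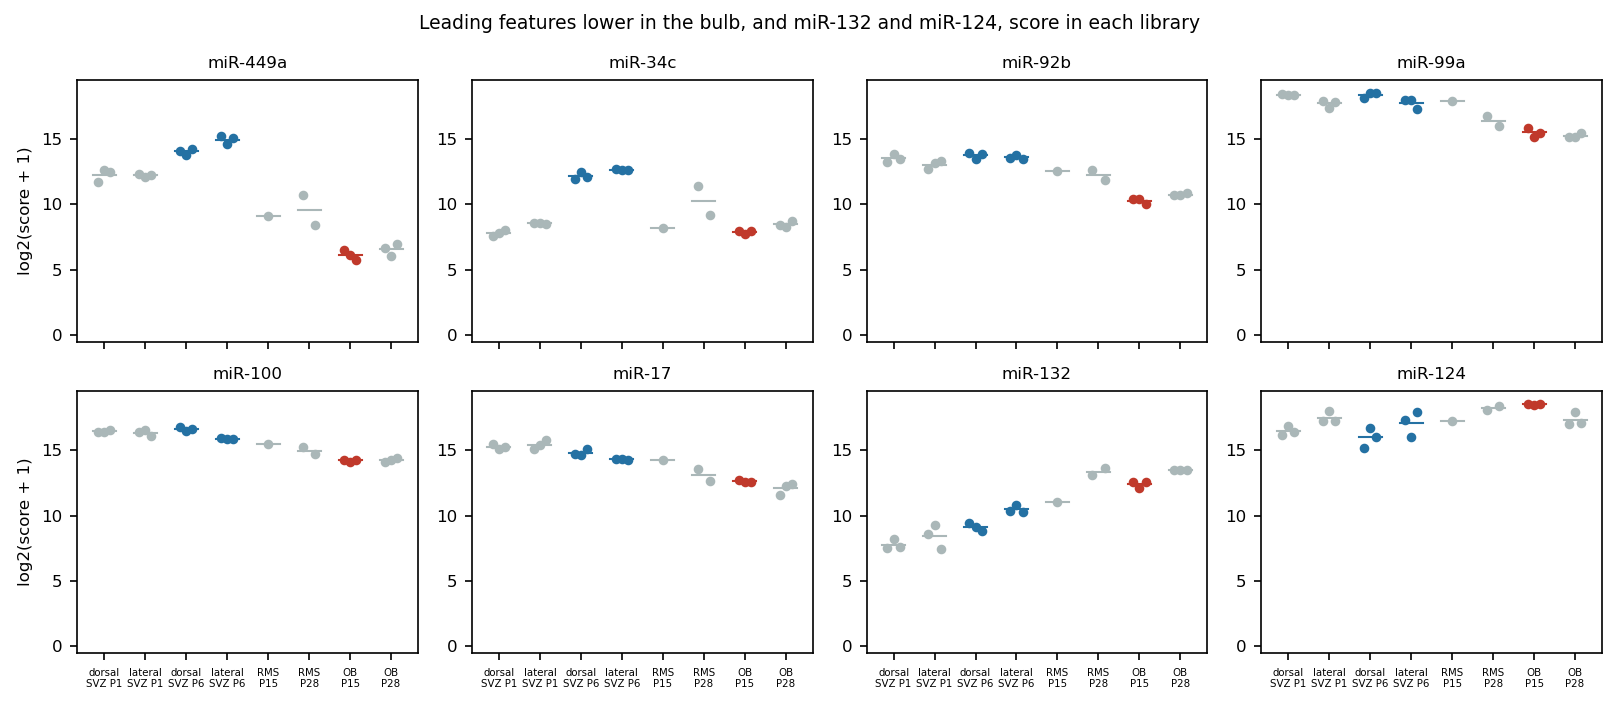
Log2(score + 1) of 6 microRNAs that were lower in OB P15 and of miR-132 and miR-124, which were higher (vertical axes), in each of the 21 libraries, by group (horizontal axis); points are libraries, bars are group means of the log values, OB P15 is red, SVZ P6 blue and the other groups grey. For miR-34c the OB libraries lie at the level of the SVZ at P1, and for miR-99a and miR-17 the RMS library of P15 lies within the range of the SVZ at P6.

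Other families showed little or mixed change, beside 21.7% higher and 14.3% lower among all features. In the let-7 family, which rises with differentiation in many tissues, 6 of 32 tested features were lower and 1 higher, and the median log2 fold change was 0.00. The higher one, pre-let-7e, named after its values were seen, scored 10, 8 and 25 in OB and lost its call without any 1 of the OB libraries (adjusted p = 0.0741, 0.0563 and 0.185). Let-7b scored 23813, 20871 and 18937 in OB and 32200 to 60373 (median 39920.5) in SVZ, a log2 fold change of -0.97 ± 0.18. The larger fall of let-7c-1*, -4.15 ± 0.43, stood beside that of miR-99a* (-3.20 ± 0.33), whose hairpin gene is the neighbour of let-7c-1. In the miR-30 family 2 of 17 features were higher, miR-30e and miR-30e*, and both lost the call relative to the median feature (adjusted p = 0.47 and 0.484) and without OB replicate 3 (adjusted p = 0.136 and 0.105). In the family of miR-130 and miR-301, 3 of 11 features were lower and 2 higher, with miR-130a at 51547, 47872 and 49912 in OB and 101568 to 163611 (median 131282) in SVZ (log2 fold change -1.38 ± 0.16). In the miR-181 family 4 of 15 were lower, all from the hairpins of miR-181c and miR-181d, and the calls of miR-181d, miR-181c* and pre-mir-181d were lost without OB replicate 3 (adjusted p = 0.0517, 0.135 and 0.0581). In the clusters of miR-23, miR-27 and miR-24, 2 of 13 features were lower, miR-23a and miR-27a. Among 5 features of the cluster of miR-221 and miR-222, 0 passed, and among 28 of the Sfmbt2 cluster 0 passed, in limma.

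The imprinted Dlk1-Dio3 cluster, expressed from the maternal allele, had 108 tested features. Of these, 22 were higher against both walls together, which is 20.4% beside 21.7% of all features, and 2 were lower, miR-154* and miR-376b. Against the dorsal wall 68 were higher and 0 lower (30% and 12.6% of all features), with a median log2 fold change of 1.46. Against the lateral wall 0 were higher and 7 lower (13.5% and 12.8% of all features), with a median of -0.29. Relative to the median feature of each library, 8 were higher and 7 lower against both walls. MiR-127 scored 3833, 3379 and 3669 in OB, 1274, 788 and 585 in the dorsal wall and 3606, 3643 and 4191 in the lateral wall. Its OB level was close to the lateral wall (log2 fold change -0.07, adjusted p = 0.894) and above the dorsal wall (2.11, adjusted p = 1.05e-06). MiR-668 scored 2470, 1837 and 1875 in OB, 426, 404 and 269 in the dorsal wall and 1706, 2199 and 1942 in the lateral wall.

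In 11 features (1.36% called) the bulb level passed as above the dorsal wall and below the lateral wall. The contrast of lateral against dorsal wall, tested in the same fit, passed in 164 of 807 features (20.3%). It passed in all 11, which follows from how they were picked. Their gap between the walls is made up of both effects, so its pass is no separate result. MiR-153, a microRNA of neurons that targets synaptic transcripts, scored 430, 395 and 548 in OB, 214, 145 and 129 in the dorsal wall and 2226, 2071 and 2440 in the lateral wall. It was 1.51 ± 0.26 above the dorsal wall (adjusted p = 7.53e-05) and -2.30 ± 0.26 against the lateral wall (adjusted p = 2.50e-07). MiR-551b scored 2630, 2463 and 2832 in OB, 865, 1176 and 1049 in the dorsal wall and 7933, 8228 and 7474 in the lateral wall. MiR-344 scored 7571, 5992 and 6484 in OB, 1876, 1641 and 857 in the dorsal wall and 11181, 12370 and 10984 in the lateral wall. In all 3 the walls and the bulb formed separate ranges, and averaging the walls left log2 fold changes of -0.40, -0.11 and 0.74.

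MiR-218, a microRNA abundant in motor neurons, scored 11587, 9921 and 9461 in OB, 6364, 5206 and 6069 in the dorsal wall and 25159, 35887 and 23882 in the lateral wall. The other members were miR-7a, pre-mir-153, miR-193b, miR-708, miR-494, miR-135a and miR-409-3p. Some of these calls were lost when a single library was left out: those of miR-135a, miR-193b, miR-494, miR-409-3p and pre-mir-153 against the dorsal wall, and those of miR-708, miR-409-3p and miR-344 against the lateral wall. Without OB replicate 1 the adjusted p against the dorsal wall was 0.0834 for miR-135a, 0.103 for miR-193b, 0.0965 for miR-494, 0.116 for miR-409-3p and 0.165 for pre-mir-153. Without OB replicate 2 the adjusted p against the lateral wall was 0.114 for miR-708, 0.0626 for miR-409-3p and 0.0932 for miR-344. With scores set relative to the median feature, the adjusted p against the dorsal wall was 0.624 for miR-218, 0.325 for miR-494, 0.11 for pre-mir-153 and 0.0501 for miR-7a.

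**Figure D5:**
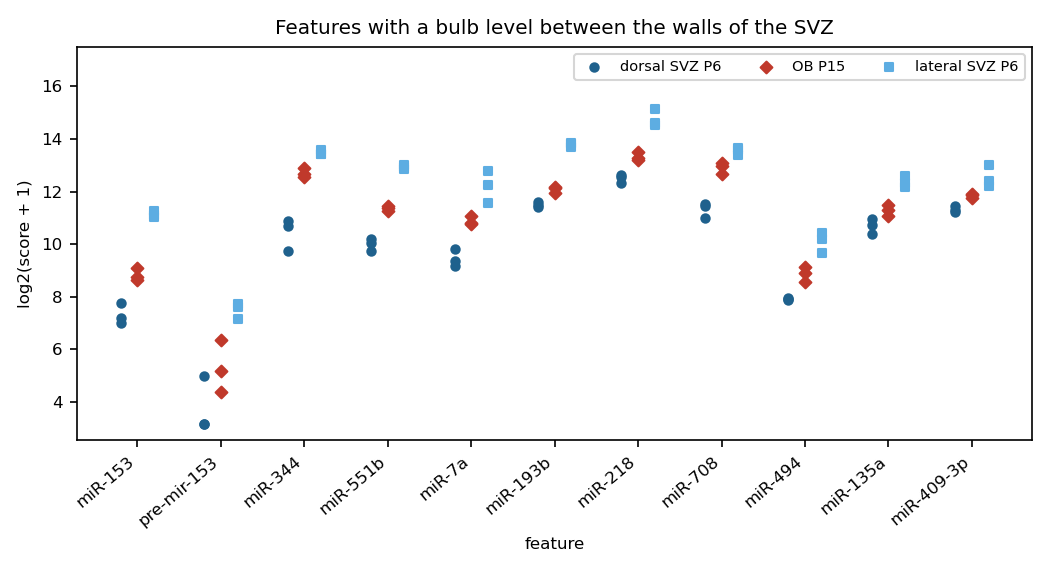
Log2(score + 1) (vertical axis) of the 11 features (horizontal axis) whose OB P15 level passed above dorsal SVZ P6 and below lateral SVZ P6; points are the 3 libraries of each group, dark circles dorsal wall, red diamonds OB and light squares lateral wall. MiR-153 shows the widest gap between the walls, 3.81 on the log2 scale.

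Markers of other cell types differed in how they changed, and their part in the results above was not tested. The counts of each list stand beside 21.7% higher and 14.3% lower among all features. Of 9 tested mesenchymal and meningeal features 7 were higher in OB, with a summed score of 11487 to 14343 in OB, 5950 to 8118 in dorsal libraries and 6259 to 8466 in lateral libraries. Relative to the median feature of each library, 5 of the 9 were higher. MiR-145, of smooth muscle and pericytes, scored 9542, 7973 and 7830 in OB and 4242 to 6298 (median 5162) in SVZ (log2 fold change 0.69 ± 0.17), and miR-214 scored 38, 30 and 14 in OB and 0 to 4 (median 1) in SVZ. For miR-214 the filter on low scores favoured a higher level in the bulb. Of 3 endothelial features 2 were higher, miR-126-3p (1.22 ± 0.27) and miR-126-5p (0.63 ± 0.16), with summed scores of 16085 to 22686 in OB, 9986 to 14710 in dorsal libraries and 8662 to 11626 in lateral libraries. Relative to the median feature the calls of miR-145, miR-126-3p and miR-126-5p were lost (adjusted p = 0.402, 0.069 and 0.451), and that of miR-126-5p also without OB replicate 3 (adjusted p = 0.0504).

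Of 8 oligodendrocyte features 4 were higher (miR-338-3p, miR-338-5p, pre-mir-338 and miR-219-3p) and 3 lower (miR-219-3p*, miR-219-5p and pre-mir-219-1), with summed scores of 5158 to 5978 in OB, 3469 to 4345 in dorsal libraries and 1883 to 2284 in lateral libraries. MiR-338-3p, which promotes oligodendrocyte maturation, scored 3359, 2817 and 2634 in OB and 895 to 1413 (median 1196.5) in SVZ, a log2 fold change of 1.29 ± 0.23. MiR-219-3p scored 1621, 1784 and 1603 in OB, 1900, 1532 and 1882 in the dorsal wall and 91, 163 and 136 in the lateral wall, so the OB range lay within 1532 to 1900, the range of the dorsal wall. The call of miR-219-5p was lost in 7 of the 9 fits that left out 1 library, all but those without dorsal replicate 3 or lateral replicate 3 (adjusted p = 0.0524 to 0.145), and that of pre-mir-219-1 without OB replicate 2 (adjusted p = 0.0888). Of 6 microglial and leukocyte features 2 were higher, miR-150 and miR-223, and 1 lower, miR-155, with summed scores of 3630 to 4406, 1875 to 2554 and 1285 to 2515 in the same order. MiR-150, of lymphocytes, scored 2720, 2485 and 2373 in OB and 722 to 1156 (median 871) in SVZ (log2 fold change 1.51 ± 0.24). MiR-223, of myeloid cells, scored 1078, 1071 and 723 in OB, 396, 333 and 365 in the dorsal wall and 1273, 330 and 185 in the lateral wall, so 1 lateral library lay above every OB library. Its call (log2 fold change 1.25 ± 0.37) was lost without OB replicate 1 (adjusted p = 0.0582) or 2 (adjusted p = 0.0569) and relative to the median feature (adjusted p = 0.0785). MiR-155, of activated immune cells, was lower, at 34, 24 and 15 in OB and 68 to 210 (median 88) in SVZ (log2 fold change -2.11 ± 0.49).

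All 3 choroid plexus features were higher, with summed scores of 6835 to 8046 in OB, 2814 to 4983 in dorsal libraries and 3498 to 4182 in lateral libraries. MiR-204 scored 7895, 7031 and 6701 in OB and 2763 to 4893 (median 3974.5) in SVZ, a log2 fold change of 0.92 ± 0.21 that did not pass relative to the median feature (adjusted p = 0.0988). MiR-211, a relative of miR-204, scored 138, 83 and 116 in OB and 27 to 83 (median 60) in SVZ, so that the groups met at 83 (log2 fold change 1.04 ± 0.40, adjusted p = 0.0451). Its call was lost relative to the median feature (adjusted p = 0.121) and without any 1 of the OB libraries, dorsal replicate 2 or 3 or lateral replicate 3 (adjusted p = 0.0508 to 0.177). In that scaling 1 of the 3 was higher, miR-204*. Its log2 fold change of 2.76 ranged from 0.82 to 3.45 over the alternatives. The call of miR-204* was lost in limma with all feature types in the fit (adjusted p = 0.0608). Of 7 erythroid features 0 passed in limma, with summed scores of 2723 to 3362 in OB, 1776 to 5256 in dorsal libraries and 1664 to 2101 in lateral libraries. Of 3 muscle features 2 were higher at low scores, with miR-1 at 92, 57 and 78 in OB and 5 to 21 (median 9.5) in SVZ and miR-1-1* at 15, 4 and 7 in OB and 0 to 20 (median 0) in SVZ. For miR-1-1* 1 dorsal library, at 20, lay above every OB library, and its call was lost with a pseudocount of 10 (adjusted p = 0.105), relative to the median feature (adjusted p = 0.0828) and without OB replicate 1 or 3 or dorsal replicate 1 or 2 (adjusted p = 0.0562 to 0.13). The summed muscle score was 86 to 140 in OB and 12 to 41 in SVZ. MiR-10b, the only tested feature of the Hox cluster list and a mark of hindbrain and spinal cord, scored 12, 8 and 11 in OB and was listed at 0 in all 6 SVZ libraries. Here too the filter on low scores favoured a higher level in the bulb.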

How the data were processed

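Small RNA was extracted with a miRNeasy kit and sequenced on a SOLiD 5500XL machine, per the labels' protocols. Bowtie, DESeq and mm9 are listed in the submitters' processing notes, with no role or version. The deposited values are scores: normalized read counts that the authors rounded to whole numbers. Ranked scores divided by 1 factor per library varied between libraries by 0.00789% at rank 100 and 0.685% at rank 1000 (coefficient of variation), so depth is unknown and no count model was used.

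Log2(score + 1) of the 807 features with a score of at least 10 in at least 3 libraries was fitted in limma 3.58.1 (R 4.3.3) with 1 mean for each of the 8 groups over all 21 libraries and a mean-variance trend. The contrast was OB P15 minus the mean of both SVZ P6 walls. Tests were two-sided with Benjamini-Hochberg adjustment. The script was tested on simulated data. Named features were the 15 largest non-overlapping changes in each direction whose higher group averaged at least 50, all members of 4 lists (miR-200, miR-183, miR-7, and miR-132 with miR-212), up to 4 of each other list by smallest p, the 10 most abundant of each tissue, and the features between the walls. A further 37 were named after their values were seen. The members and lists were chosen with earlier results of these data known. Of the tested features 668 matched a RefSeq hairpin gene. No coordinates are given, since that table has another build than mm9.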

Additional observations from a re-analysis of the deposited data

Results flagged for a closer look

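For 11 features the effect of the bulb differed between the walls of the SVZ: the OB P15 level passed as higher than dorsal SVZ P6 and as lower than lateral SVZ P6. The difference of both effects is the contrast of lateral against dorsal wall. It passed in the same limma fit for each of them, as features picked in this way were bound to do. Its log2 value was 3.81 for miR-153, 3.70 for pre-mir-153, 3.06 for miR-344, 2.94 for miR-551b and 2.77 for miR-7a. It was 2.28 for miR-193b, 2.25 for miR-218, 2.22 for miR-708 and 2.18 for miR-494. The smallest were 1.68 for miR-135a and 1.20 for miR-409-3p. These features were picked from 807 because they passed in both comparisons, which share the OB libraries.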

How the results depend on the processing

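Of 167 results for named features that passed, 121 kept direction and call in all 22 alternatives, 131 kept their call without each library in turn, and 3 reversed in some alternative. Scaling moved the balance most. Relative to the median feature, 112 features were higher and 195 lower against the SVZ, 146 higher and 203 lower against the dorsal wall, and 171 lower against the lateral wall. With trimmed mean of M values factors 158 were lower against the dorsal wall. Relative to the median feature the log2 fold change turned to -0.027 for miR-103, -0.11 for miR-29c, -0.042 for miR-30a* and -0.16 for pre-mir-142, and against the dorsal wall to -0.018 for miR-135a, -0.053 for miR-193b and -0.12 for miR-409-3p; the last 3 had passed. The very low pre-mir-126 (reported value 0.03, not passed) turned to -0.0921 with a pseudocount of 10, -0.0890 with trimmed mean factors, -0.38 relative to the median feature, -0.043 with a shared source for equal description numbers, -0.62 without OB replicate 1, -0.48 without dorsal replicate 3 and -0.52 without lateral replicate 2, and ranged from -0.62 to 0.61 over the libraries left out. With all feature types in the fit, 124 features passed against the lateral wall, 60 higher and 64 lower, and 5 lay between the walls, where 7 did without a mean-variance trend. The cause was not tested.

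Leaving out 1 library gave 215 to 276 calls against the SVZ (118 to 177 higher, 82 to 112 lower), 276 to 334 against the dorsal wall (179 to 234 higher, 84 to 100 lower) and 165 to 217 against the lateral wall (77 to 113 higher, 76 to 104 lower). Between the walls 6 to 9 features passed in both comparisons: 6 without OB replicate 1, 6 without OB replicate 3, 7 without dorsal replicate 2 and 7 without dorsal replicate 3. With a replicate block on the number in the title, 286 features passed against the SVZ (171 higher, 115 lower), 336 against the dorsal wall, 214 against the lateral wall and 8 between the walls. Deviations of same-numbered libraries correlated at -0.0588 to 0.0814, and those of other pairs at -0.143 to 0.160. Between the walls, same-numbered pairs stood at 0.055, 0.063 and 0.035, and the highest other pair at 0.019. With 3 libraries in a group, these values cannot show whether the numbers pair the samples. Treating equal description numbers as a shared source gave 293 calls. The depth is unknown, so scores near 0 cannot be told from absence.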

Other observations

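Several features outside the lists also differed, and they were named after their values were seen. MiR-592, encoded within the Grm8 gene, scored 811, 649 and 972 in OB and 34 to 77 (median 42.5) in SVZ (log2 fold change 4.05 ± 0.60), and its star form scored 224, 120 and 107 and 3 to 19 (median 12.5). MiR-490-3p scored 215, 274 and 219 in OB and 11 to 54 (median 33.5) in SVZ, and miR-490-5p of the same hairpin 109, 137 and 150 and 0 to 23 (median 7). In all 4 the bulbs lay above every SVZ library. Their printed seeds are not shared with each other.
miR-592: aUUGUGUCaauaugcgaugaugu
miR-490-5p: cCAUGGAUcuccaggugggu
miR-490-3p: cAACCUGGaggacuccaugcug

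The neighbours miR-191 and miR-425 were both higher, in 5 of the 6 tested features of their locus. MiR-191 scored 38226, 35501 and 37013 in OB and 13616 to 27574 (median 15716.5) in SVZ, and miR-425 scored 2075, 2048 and 1452 and 491 to 914 (median 651). MiR-31 scored 1161, 1479 and 814 in OB and 206 to 497 (median 276.5) in SVZ, and miR-328 scored 5453, 4715 and 3881 and 1931 to 2830 (median 2126). Among lower features, miR-149 scored 7760, 7332 and 7020 in OB, 14087, 7934 and 9760 in the dorsal wall and 24311, 28895 and 28445 in the lateral wall (log2 fold change -1.18 ± 0.18). The locus from miR-450b to miR-322 on RefSeq's order of genes was lower in 10 of 14 tested features, with a median of -1.57. Of all 807 features 21.7% were higher and 14.3% were lower.

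Mature and star forms were paired by name, so a mature form cut from several hairpins was paired with each tested star form. Both forms passed in 47 of 175 pairs: 25 both higher, 20 both lower and 2 in opposite directions. One of the opposite pairs was miR-219-3p, higher at 1.82 ± 0.32, with miR-219-3p* lower at -2.16 ± 0.48, and the OB scores of miR-219-3p lay within the dorsal range. The other was miR-376b (-0.71 ± 0.27) with miR-376b* (1.42 ± 0.35), and the call of miR-376b was lost without any 1 of the 3 OB libraries (adjusted p = 0.112, 0.133 and 0.088).

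Hairpin features took 2.44% to 2.75% of the microRNA score in OB and 1.53% to 1.85% in SVZ. Without the miR-200 family and the miR-183 cluster the OB share was 1.99% to 2.26%. In OB, pre-mir-141 took 59.4% to 64.5% of the summed score of its hairpin and strands, and pre-mir-183 25.3% to 27.8%, where the median of 126 loci with a summed level of at least 1000 was 1.02%. The other 5 hairpins of both groups among these loci (pre-mir-200a, pre-mir-200b, pre-mir-200c, pre-mir-429 and pre-mir-182) took 0.695% to 5.80%. Such high shares were also found outside these groups and in both tissues: pre-mir-222 took 62.6% to 68.7% in OB and 54.8% to 72.1% in SVZ, and pre-mir-30e 60.8% to 64.2% and 60.4% to 70.9%. Scores are not corrected for length, and the difference was not tested.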
